A study of Mus with 12 samples.

Results

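The genes described here are 10 genes of ovarian steroid hormone production, and they were followed one library at a time through RNA-seq of whole mouse uterus. They are Star, Cyp11a1, Hsd3b1, Cyp17a1, Cyp19a1, Hsd17b7, Akr1c18, Akr1cl, Lhcgr and Inha. Rows of the deposited FPKM tables were taken when they carried one of these names and an Ensembl transcript, which gave 10 of 87235 rows at the implantation stage and 9 of 40787 rows at the labor stage, where Cyp19a1 had no such row. FPKM is a read count scaled by transcript length and by library depth. The genes were chosen by their measured FPKM in the implantation table, because 1 library, E4.5 replicate 3, stood far above the others in them, so its levels are given as a description with no test.

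The 12 libraries came from 12 pregnant ICR mice, an outbred strain, described as 8 weeks old, and no treatment or engineered allele is named for any group. Each library was the whole uterus of 1 mouse. There were 3 mice each for E0.5 and for E4.5, which form the implantation stage, and 3 each for E15.5 and for E18.5, which form the labor stage. The study compared E0.5 with E4.5 and E18.5 with E15.5, as days between which progesterone differs. Each stage was assembled and normalized in a table of its own, so the stages were not tested against each other. Total counts ran from 58020989 to 70906881 per library at the implantation stage. The count totals of the labor libraries are unknown, since that table holds FPKM only, and the study gives an approximate amount of data per uterus sample. In whole tissue, fewer cells of a type and less RNA per cell cannot be told apart.

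Steroid hormones are made from cholesterol. Star carries cholesterol into mitochondria, Cyp11a1 cleaves its side chain to give pregnenolone, and Hsd3b1 turns pregnenolone into progesterone. Cyp17a1 leads on to androgens, and Cyp19a1, or aromatase, turns androgens into estrogens. After ovulation the follicle becomes the corpus luteum, the main source of progesterone in the pregnant mouse, whose cells respond to luteinizing hormone through Lhcgr. Hsd17b7 acts in estrogen and cholesterol synthesis, Akr1c18 (20α-hydroxysteroid dehydrogenase) inactivates progesterone, Akr1cl belongs to the same aldo-keto reductase family, and Inha is the inhibin alpha subunit, a hormone chain of granulosa cells.

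E4.5 replicate 3 stood apart from the rest of its table. Of 11682 protein-coding rows that averaged 1 FPKM or more, 110 (0.942%) were at least 10 times higher in it than in every other library of its table, against 1 row in each E0.5 library and 0 in E4.5 replicates 1 and 2. Without a fold minimum, 4505 of these rows (38.6%) were above all other libraries of the table in it, and the counts of list genes that lie above are to be read against that share. In the labor table the count of 10-fold rows was 10, 1 and 3 of 14254 rows in the E15.5 libraries and 0 in each E18.5 library. The 10 genes took 1.31% of all counts in E4.5 replicate 3 (859963 counts, 95% Wilson interval 1.306% to 1.311%). Their share in the 5 other libraries of the stage was 0.00355% to 0.00495%. These intervals cover counting error only. In summed FPKM the genes reached 2061 in E4.5 replicate 3 and 7.10 to 11.98 in the 5 others. The sum at the labor stage was 352, 441 and 667 at E15.5 and 886, 789 and 695 at E18.5, most of it from Akr1c18.

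**Figure D1:**
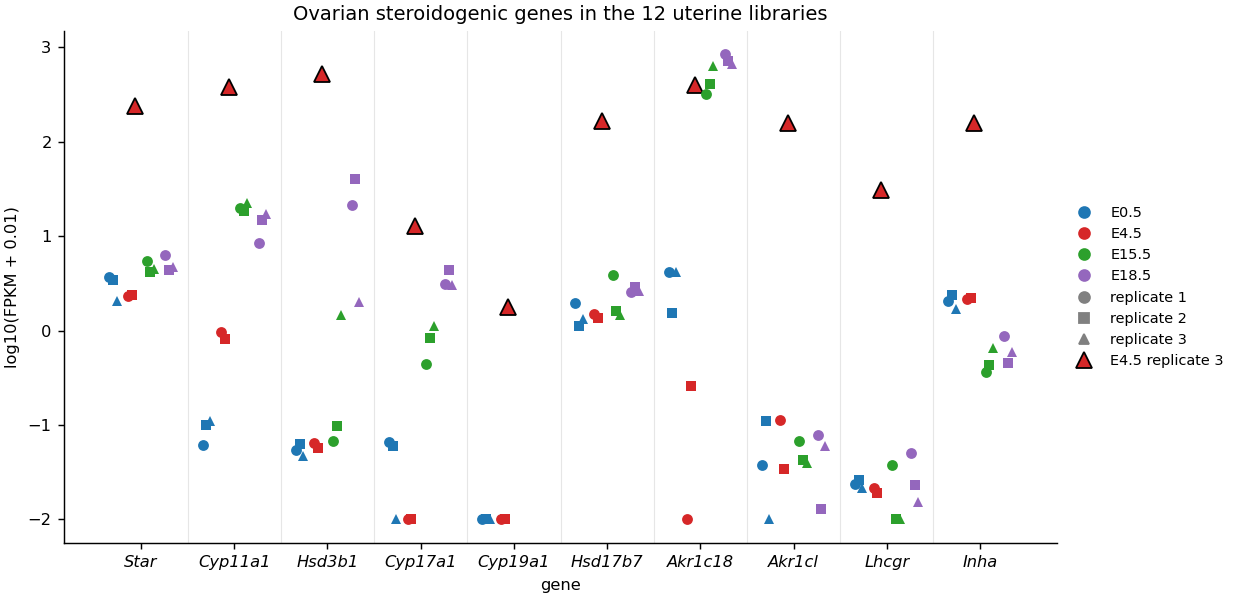
Level of each of the 10 genes as log10(FPKM + 0.01) on the y axis, with 1 point per library, colored by day of pregnancy and shaped by replicate number. E4.5 replicate 3 (large outlined triangle) lies above the 5 other implantation libraries for every gene, whereas Akr1c18 reaches 323 to 843 FPKM in the labor libraries, and Cyp19a1 has no points at the labor stage because it has no row there.

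Star, Cyp11a1 and Hsd3b1, which take cholesterol to progesterone, were among the 4 highest of the 10 genes by FPKM in E4.5 replicate 3, together with Akr1c18. Hsd3b1 (chr3:98852194-98859794, minus strand) was at 519 FPKM from 244532 counts, the second highest of the protein-coding rows of that library, and at 0.0439, 0.0530 and 0.0368 FPKM in the E0.5 uteri, while E4.5 replicates 1 and 2 had 0.0541 and 0.0475. Its level was 9590 times that of the next library, and each of those 5 libraries held only 19 to 27 counts. Cyp11a1 (chr9:57998041-58022386, plus strand, in a row merged with the noncoding gene Gm17322) was at 378 FPKM, in place 5 of the library and 398 times above the next. Star (chr8:25806555-25816099, plus strand) was at 238 FPKM, in place 14. It was the gene of the 3 with the smallest ratio, 65.0 times the next library, because the other uteri held 2.07 to 3.66 FPKM of it.

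Some of the mitochondrial and cholesterol genes that work with these enzymes were high in the same library. Fdx1, the ferredoxin that passes electrons to Cyp11a1, was at 96.4 FPKM against 1.61 to 2.19 in the 5 others. Its reductase Fdxr was at 58.8 FPKM against 2.11 to 3.36. The lipoprotein receptor Scarb1, which takes up cholesterol, was at 73.5 FPKM against 1.99 to 6.48, and Soat1, which stores it as ester, was at 76.0 FPKM against 5.85 to 9.499. Of the 25 genes of a steroid pathway list, 12 were above all 5 other libraries, 3 of them at least 10 times above, and 13 were not. For scale, 38.6% of protein-coding rows that averaged 1 FPKM or more were above. Some of the 25, such as Hsd3b6, averaged less and are outside that set. Among those 13 were the cholesterol genes Lipe (4.18 FPKM against 2.62 to 7.17), Stard3 (6.40 against 4.39 to 8.45) and Npc2 (16.4 against 10.1 to 17.6). The near copies of Hsd3b1 did not share its level in these counts, with Hsd3b2 at 0.0978, Hsd3b3 at 0.0915 and Hsd3b6 at 0 FPKM in E4.5 replicate 3. How reads common to such copies were assigned is not given in the sources used here.

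The genes that lead away from progesterone differed widely from each other in that library. Akr1c18 (chr13:4132615-4150654, minus strand) was at 399 FPKM, 77.02% of the Hsd3b1 level, and Akr1cl (chr1:65012689-65032759, minus strand) at 158 FPKM, where the next library held 0.104. Hsd17b7 (chr1:169949535-169969241, minus strand) was at 165 FPKM, 84.6 times the next library. The androgen and estrogen enzymes were far lower. Cyp17a1 (chr19:46667165-46673172, minus strand) was at 12.7 FPKM, 2.46% of the Hsd3b1 level, and Cyp19a1 (chr9:54165937-54268110, minus strand) at 1.79 FPKM, 0.346% of it. Cyp19a1 had 659 counts in E4.5 replicate 3 and 0 in the 5 others, which makes it at least 194-fold higher against a floor of 3 counts per library. By level within the library, Hsd3b1, Akr1c18 and Cyp11a1 thus stood in places 2, 4 and 5 of the protein-coding rows, Cyp17a1 in place 1296 and Cyp19a1 in place 10068.

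The receptor Lhcgr (chr17:88716481-88791976, minus strand) was at 31.2 FPKM in E4.5 replicate 3 and at 0.00906 to 0.0161 FPKM in the 5 others, a ratio of 1942. Its row spans an effective 44.1 kb, from the ratio of its counts to its FPKM, against 1.49 kb for Akr1c18, and the length moves the order of the genes. Lhcgr was in place 8 of the 10 by FPKM and in place 3 by CPM (the count scaled by library depth alone), at 1316 CPM, whereas Akr1c18 was in place 2 by FPKM and in place 8 by CPM. Inha (chr1:75506517-75510366, plus strand) was at 159 FPKM against 1.69 to 2.39. Short unannotated rows beside 3 of the genes also had counts in this library. One within Lhcgr (chr17:88736192-88736770) had 102 counts and 0 in the other 5 libraries, and one that overlaps the 3′ end of Hsd3b1 on the opposite strand (chr3:98847048-98852550) had 672 counts and at most 2 in the others.

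A second list held 16 transcription factors, receptors, and secreted ligands or binding proteins of ovarian somatic cells. All 16 were above the 5 other libraries, and 10 were at least 10 times above them. Nr5a1, or SF-1, the nuclear receptor that drives many steroidogenic genes, was at 17.5 FPKM in E4.5 replicate 3 and at most 0.0648 in the others. Nr5a2, its close relative in granulosa and luteal cells, was at 17.2 FPKM against at most 0.656, and Gata4 at 11.3 against at most 0.139. The anti-Müllerian hormone receptor Amhr2 was at 23.9 FPKM against at most 0.201. Ptgfr, the prostaglandin F receptor through which the corpus luteum is made to regress, was at 160 FPKM and between 1.25 and 2.01 in the rest.

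Marker lists of other cell types were set beside these values. Of 10 corpus luteum markers, 5 of which are among the 10 genes, 9 were above all other libraries and 8 were at least 10 times above them, and Parm1 was the exception with 5.47 FPKM against 4.16 to 6.07. All 8 granulosa and follicle markers were above the others, and Inha and Cyp19a1 among them are 2 of the 10 genes, so that part of the count restates their choice. The rest of the 8 (Foxl2, Fshr, Amh, Inhba, Inhbb and Nr5a2) are also on the second list above. Prlr and Ptgfr of the luteal markers are on it too, so these counts are not separate from that of the second list. The receptor Fshr, which marks granulosa cells, had 0 counts in the other 5 libraries and 3.63 FPKM here. Oocyte markers were above the others for 11 of 12 genes, with Gdf9 at 18.9 FPKM against at most 0.232, Zp3 at 10.4 against 0, and Figla at 0 in every library of the table. Follicle and oocyte markers were thus high in the same library as the luteal ones.

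The remaining lists differed from each other in E4.5 replicate 3. All 6 oviduct and ciliated cell markers were above the others, none of them 10-fold, with summed levels of 93.0 FPKM in this library, 5.11 to 17.6 at E0.5 and 4.17 to 4.89 in the other E4.5 libraries. Ovgp1, in a row merged with Wdr77 and Gm42890, gave 69.6 of the 93.0 FPKM, and Foxj1 was at 9.73 against at most 2.67. The 6 fat markers summed to 29.8 FPKM in it, above the other E4.5 libraries (4.10 and 8.46) and within the E0.5 range of 21.2 to 63.1. The adrenal cortex enzymes Cyp11b1 and Cyp11b2, which define that gland, were at 0, Cyp21a1 was at 0.322 FPKM, and Mrap was the only one of 6 adrenal markers above the others. Of 10 trophoblast markers, 8 were at 0 and 1, Synb, was above the others. Of the theca and interstitial list, Cyp17a1 (one of the 10 genes) and Nr5a1 (on the second list above) were above the others. Insl3, in a row merged with Jak3, was not, with 2.42 FPKM against 2.38 to 6.39. All 10 uterine markers were at their lowest of the 6 libraries, at 5.0% to 78.5% of the mean of E4.5 replicates 1 and 2 (median 18.6%). The share of all rows that were lowest in this library was not counted, so this count has no background beside it. Krt8 (14.30 FPKM against 14.39 in E4.5 replicate 1) and Foxa2 (0.579 against 0.658) were only slightly under the next library. Smooth muscle myosin Myh11 was at 20.3 FPKM against 97.4 and 79.3 in the other E4.5 uteri, and the stromal factor Hand2 at 1.13 against 22.0 and 20.6. The part of tissue other than uterus in the levels of E4.5 replicate 3 was not tested.

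**Figure D2:**
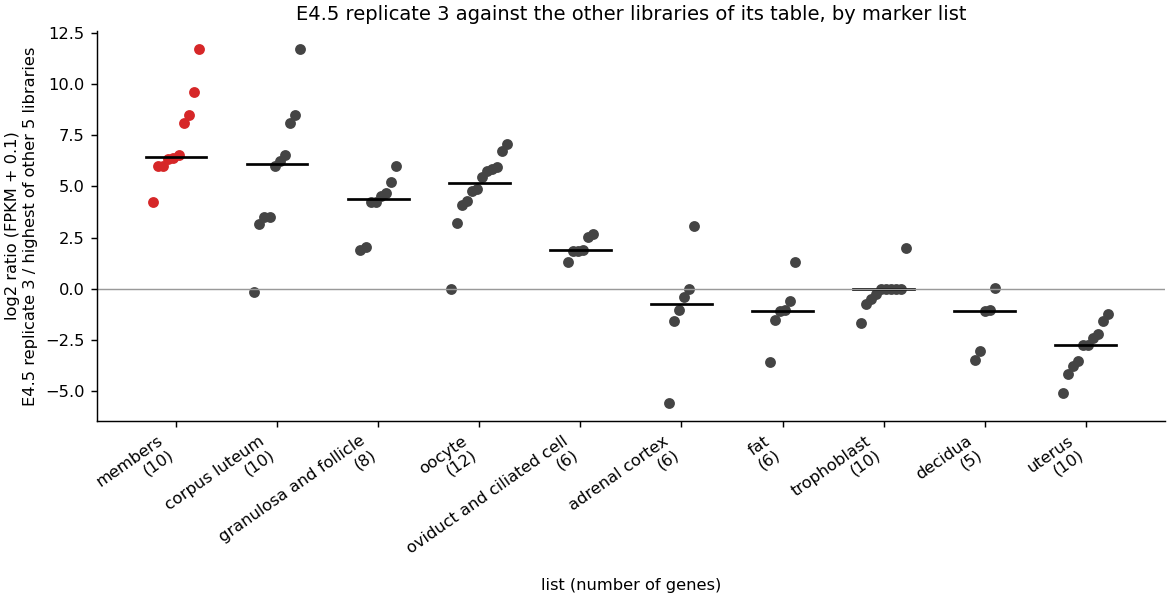
Log2 ratio of E4.5 replicate 3 to the highest of the 5 other implantation libraries, with 0.1 FPKM added to both, on the y axis for each gene of 10 lists; each point is 1 gene, the short lines are medians, and the number of genes is under each name. Points above 0 are genes higher in E4.5 replicate 3 than in all 5 others: the 10 genes (red), which overlap the ovarian lists, and 11 of 12 oocyte markers lie above 0, and all 10 uterine markers lie below it. Of protein-coding rows that averaged 1 FPKM or more, 38.6% were higher in E4.5 replicate 3 than in all 5 others.

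Protein-coding rows that averaged 1 FPKM or more, other than the 10 genes, were ranked by the ratio of E4.5 replicate 3 to the next library. The level of that library was set to 0.1 FPKM where it was lower, so that these ratios are smaller than plain ones for low genes. Acsbg1, an acyl-CoA synthetase, led at 75.1 FPKM in E4.5 replicate 3 and a ratio of 751. Cyp4f18 followed at 318 FPKM and a ratio of 670, and Mgarp, Wnt10b, Padi6 and Nr5a1 were also among the 15 highest, at 430, 207, 183.3 and 175 on this scale. The 15 genes had Pearson correlations of 0.975 to 0.999 with the mean profile of the 10 genes over 6 libraries. This is a description set by 1 library and by the choice of rows on that ratio. Of the 15, 8 are rows of a cluster of near-identical genes on chromosome 5 (from 25935791 to 26124426), whose reads cannot be assigned with certainty.

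With E4.5 replicate 3 left out, the uterus of early pregnancy held 3 of the 10 genes above 1 FPKM in all 5 libraries. Star was at 3.66, 3.47 and 2.07 FPKM at E0.5 and at 2.31 and 2.40 FPKM at E4.5, and the days overlapped. Inha was at 2.04, 2.39 and 1.69 FPKM at E0.5 and at 2.16 and 2.23 at E4.5. Hsd17b7 was at 1.95, 1.10 and 1.31 FPKM and at 1.51 and 1.34, and again the days overlapped. Of the 10 genes, 5 had a mean of at least 0.1 FPKM over these 5 libraries and were tested with edgeR's quasi-likelihood test. The log2 fold change of E0.5 over E4.5 was 0.36 ± 0.27 (SE) for Star, -0.12 ± 0.22 for Inha and 0.01 ± 0.28 for Hsd17b7. Their Benjamini-Hochberg adjusted p-values were 0.502, 0.807 and 0.995, so no difference between the days was detected for these 3 genes.

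Cyp11a1 was low in these 5 libraries and differed between E0.5 and E4.5. It was at 0.0513, 0.0911 and 0.101 FPKM at E0.5 (31, 47 and 61 counts) and at 0.951 and 0.814 FPKM in E4.5 replicates 1 and 2 (554 and 457 counts). All E4.5 values were above all E0.5 values. The E0.5 mean of 0.0812 FPKM is under the filter of 0.1, so the gene entered the test through its E4.5 level, and with a filter of 1 FPKM it could not be tested. Its test is therefore taken from the fit with no filter on low rows, where the log2 fold change of E0.5 over E4.5 was -3.43 ± 0.38 (SE), with an adjusted p of 0.00314 by edgeR's quasi-likelihood test. With the filter, limma on log2(FPKM + 0.1) gave -2.45. The adjusted p was 3.62e-13 to 0.0852 over the 9 alternative fits that held the gene, most of which share that entry, so their number is no further support, and the highest was that of limma.

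Akr1c18 moved the other way, at 4.13, 1.52 and 4.21 FPKM at E0.5 (426, 136 and 444 counts) and at 0 and 0.248 FPKM at E4.5 (0 and 26 counts), without overlap. The fitted log2 fold change was 4.65 ± 1.22 (SE), which passed the study's criterion (an absolute log2 fold change of 1 or more and an unadjusted p below 0.05). The adjusted p by edgeR's quasi-likelihood test was 0.0777, which did not pass, and it was 0.0274 to 0.176 over the alternatives. The size of the change rests on the single library without counts. Without E4.5 replicate 1 it was 3.67, and without E4.5 replicate 2 it was 11.35, a fitted value that depends on the small count added to 0. Of the 5 tested genes, 2 passed the study's criterion and 1 the adjusted p, where 14.4% (7.99% higher and 6.44% lower at E0.5) and 6.28% of all 58151 tested rows did. Cyp11a1, which entered through one day, is in both counts, so they are a description. The ranges did not overlap for 2 of 5 genes, where they did not overlap for 40.3% of all rows. In the fit with all 6 libraries, which holds the library that the genes were chosen for, 12.2% of rows passed the criterion and nothing is read from it for these genes.

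**Figure D3:**
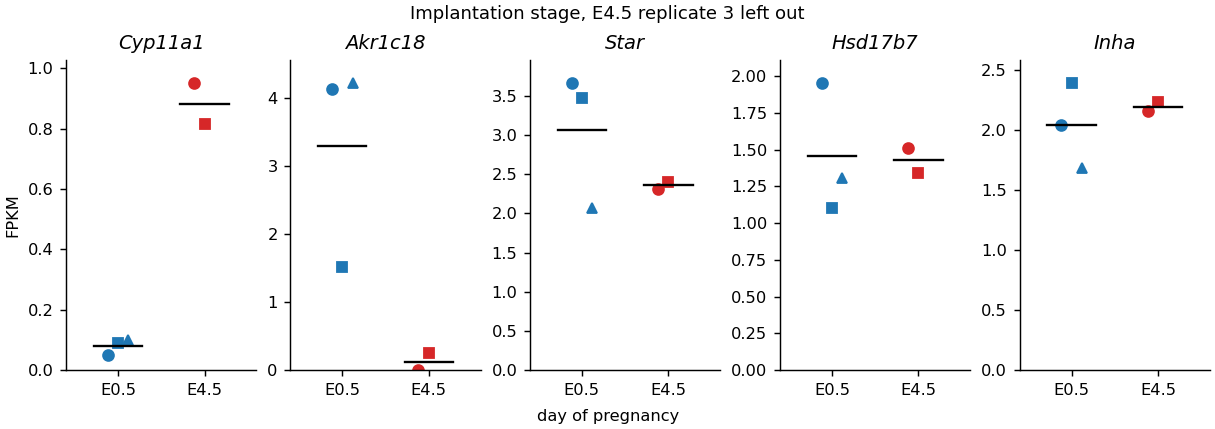
FPKM in the E0.5 libraries (blue) and in E4.5 replicates 1 and 2 (red), with lines at the mean of each day, for the 5 genes that could be tested without E4.5 replicate 3; each panel has its own y axis from 0. Cyp11a1 is higher in both E4.5 libraries than in all 3 E0.5 libraries, Akr1c18 is lower in both, and Star, Hsd17b7 and Inha overlap.

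The other 5 genes were near the limit of detection in these uteri. Hsd3b1 had 19 to 27 counts in each of the 5 libraries, Lhcgr 27 to 42, and Akr1cl 0 to 53. Cyp17a1 had 14, 11 and 0 counts at E0.5 and 0 in E4.5 replicates 1 and 2, and Cyp19a1 had 0 in all 5. A count of 0 allows up to 3 counts, or 0.0423 to 0.0517 CPM at these depths.

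Among the 25 steroid pathway genes, 21 were tested without E4.5 replicate 3, and 4 passed the study's criterion as higher at E0.5 and 4 as lower, where 7.99% and 6.44% of all rows did, with a median log2 fold change of 0.20 against 0.06 over all rows. The genes lower at E0.5 were Srd5a1 (5α-reductase, -3.52 ± 0.28 SE), Hsd11b2 (-3.07 ± 0.26) and Hsd11b1 (-1.57 ± 0.22), which convert progesterone or glucocorticoids, and Scarb1 (-1.41 ± 0.19). Those higher at E0.5 were Akr1c13 (2.59 ± 0.49), Por (1.44 ± 0.17), which feeds electrons to microsomal P450 enzymes, Lipe (1.29 ± 0.18, in a row merged with Cxcl17) and Akr1c14 (1.23 ± 0.34). All but Akr1c14 had an adjusted p under 0.05 by edgeR's quasi-likelihood test, between 0.0021 and 0.0298. Of the 16 regulators and receptors, 11 were tested, with 2 higher and 3 lower at E0.5, where 7.99% and 6.44% of all rows were, and a median of -0.20. Nr5a2 was at 0.0450, 0.0164 and 0.0406 FPKM at E0.5 and at 0.656 and 0.424 in E4.5 replicates 1 and 2, with a fitted log2 fold change of -4.01 ± 0.46 (SE). It too entered the test through its E4.5 level alone, so no p is given for it. Nr5a1 was too low to be tested.

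Some markers of other tissues also differed between the days in these 5 libraries. The summed level of 6 fat markers was 21.2 to 63.1 FPKM at E0.5 and 4.10 to 8.46 at E4.5, and 4 of the 6 tested passed the study's criterion as higher at E0.5, where 7.99% of all rows did. Adipoq alone of the 6 passed the adjusted p (0.0359 by edgeR's quasi-likelihood test). The 6 oviduct and ciliated cell markers summed to 17.6, 5.11 and 5.70 FPKM at E0.5 and to 4.17 and 4.89 at E4.5. E0.5 replicate 1 was the highest library in both this sum and the fat sum. Of the 6 oviduct markers tested, 1 (Foxj1) passed the study's criterion as higher at E0.5, where 7.99% of all rows did. Foxj1 was at 2.67, 0.954 and 0.635 FPKM at E0.5 and at 0.0423 and 0.118 at E4.5. The adrenal marker Cyp21a1, a 21-hydroxylase, was at 20.1, 9.07 and 5.002 FPKM at E0.5 and at 0.0901 and 0.0801 at E4.5, while Cyp11b2 was at 0 in all 5 libraries and Cyp11b1 at most 0.108. The ovarian lists were mixed in these uteri. The 12 oocyte markers summed to 0.163 to 0.367 FPKM, Lhcgr was at most 0.0161 FPKM and Fshr at 0. Other ovarian markers were present in all 5, with Foxl2 at 2.62 to 4.18 FPKM, Inhbb at 2.39 to 11.6 and Amh at 0.175 to 0.904. Of the 8 corpus luteum markers tested, 1 (Akr1c18) passed the study's criterion as higher at E0.5 and 3 as lower (Scarb1, Prlr and Cyp11a1, the last of which entered through its E4.5 level), where 7.99% and 6.44% of all rows did. Prlr, the prolactin receptor, was at 0.0861, 0.266 and 0.149 FPKM at E0.5 and at 0.619 and 1.87 at E4.5, in a row merged with Agxt2 (-2.88 ± 0.57 SE, adjusted p 0.0341 by edgeR's quasi-likelihood test). The part of luteal RNA in the Cyp11a1 difference was not tested. The part of fat, adrenal or oviduct RNA in the Akr1c18 difference was not tested.

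At the labor stage the picture was dominated by Akr1c18. It was at 323, 415 and 635 FPKM at E15.5 and at 843, 721 and 665 FPKM at E18.5, or 458 ± 161 and 743 ± 91.2 (SD, n = 3). All E18.5 values were above all E15.5 values. The log2 fold change of E18.5 over E15.5 was 0.75 ± 0.32 (SE) with an adjusted p of 0.418 by limma with trend on log2(FPKM + 0.1), so the difference did not pass the test. It passed the study's criterion only without E15.5 replicate 3, at 1.01. Luteal markers were mixed beside it. Lhcgr was between 0 and 0.0409 FPKM and Ptgfr between 0.224 and 0.668, whereas Sfrp4 was between 51.1 and 124, Parm1 between 6.80 and 13.3, Prlr (in a row merged with Agxt2) between 2.43 and 8.63 and Scarb1 between 2.27 and 4.25. Akr1cl was between 0.00304 and 0.0680 FPKM, and Nr5a1 was at 0 in 5 of the 6 libraries.

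The progesterone-making genes did not move as 1 group at the labor stage. Cyp11a1 was at 19.7, 18.48 and 22.7 FPKM at E15.5 and at 8.53, 14.9 and 17.4 at E18.5, lower on the later day without overlap. The log2 fold change was -0.63 ± 0.26 (SE) with an adjusted p of 0.409 by limma, and without E18.5 replicate 1 it was -0.33. Star was at 5.48, 4.16 and 4.45 FPKM at E15.5 and at 6.36, 4.43 and 4.76 at E18.5, which overlapped (0.13 ± 0.19, adjusted p 0.805 by limma). Hsd3b1 was the most uneven of the genes, at 0.0576, 0.0867 and 1.46 FPKM at E15.5 and at 21.6, 40.9 and 1.99 FPKM at E18.5. Its E18.5 replicate 3 lay closer to E15.5 replicate 3 than to the other E18.5 libraries. The log2 fold change of 5.10 ± 1.29 (SE) passed the study's criterion, but the adjusted p by limma was 0.205, and the mean of 21.5 ± 19.5 FPKM at E18.5 (SD, n = 3) shows the spread. Without E18.5 replicate 3 the log2 fold change was 6.38, and without E18.5 replicate 2 it was 4.23.

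Cyp17a1 differed more evenly. It was at 0.438, 0.826 and 1.10 FPKM at E15.5 and at 3.09, 4.39 and 3.03 FPKM at E18.5, or 0.789 ± 0.335 and 3.50 ± 0.772 (SD, n = 3), with every E18.5 value above every E15.5 value. The log2 fold change was 2.07 ± 0.33 (SE), past the study's criterion, with an adjusted p of 0.107 by limma, and it was 1.34 to 2.33 over the alternatives with an adjusted p of 0.0940 to 0.311. Hsd17b7 (2.31 ± 1.34 and 2.67 ± 0.187 FPKM) and Inha (0.474 ± 0.155 and 0.636 ± 0.214 FPKM) overlapped between the days (SD, n = 3). Of the 7 genes tested, 2, Cyp17a1 and Hsd3b1, passed the study's criterion, both as higher at E18.5, where 6.05% of all 30928 rows passed, 3.11% as higher and 2.93% as lower. None of the 7 passed the adjusted p by limma, which 0.0259% of all rows did, and 3 had an unadjusted p under 0.05. The days did not overlap for 4 of the 7, 3 higher and 1 lower, where this held for 19.9% of all rows, 10.9% higher and 8.96% lower.

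**Figure D4:**
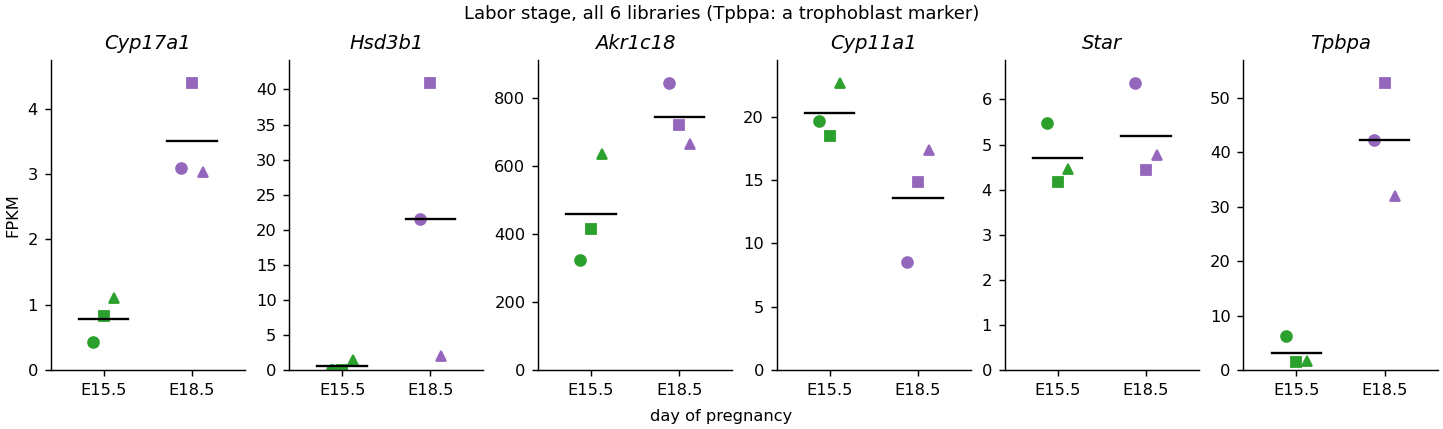
FPKM of 5 of the genes and of the trophoblast marker Tpbpa in the 3 E15.5 (green) and 3 E18.5 (purple) libraries, with lines at the mean of each day and a y axis from 0 in each panel; symbols are replicate numbers. Cyp17a1, Hsd3b1 and Akr1c18 are higher in every E18.5 library and Cyp11a1 is lower, but Hsd3b1 is at 1.99 FPKM in E18.5 replicate 3 and at 1.46 in E15.5 replicate 3.

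Of the steroid pathway list, 21 genes were tested at the labor stage, and by the study's criterion 2 rose, 1 fell and 18 did not pass, where 3.11% of all rows rose and 2.93% fell, with a median log2 fold change of -0.03 against 0.02 over all rows. Srd5a1 was at 14.2, 18.502 and 46.8 FPKM at E15.5 and at 114, 85.5 and 72.7 at E18.5 (1.95 ± 0.44 SE), and Akr1c14, a 3α-hydroxysteroid dehydrogenase, at 18.9, 19.2 and 25.8 and at 112, 55.1 and 37.3 (1.54 ± 0.38). Both act on progesterone and its products. Akr1b7 was at 347, 302 and 165 FPKM at E15.5 and at 83.3, 161 and 118 at E18.5 (-1.15 ± 0.36). None of the 21 passed the adjusted p by limma, and 5 had an unadjusted p under 0.05. The supply genes Fdx1 (2.56 to 4.51 FPKM) and Fdxr (2.03 to 2.73 FPKM) were low in all 6 libraries. Of the 10 regulators and receptors tested, Inhba, Inhbb and Nr4a1 passed the study's criterion as higher at E18.5, at 1.29, 1.99 and 1.60, and none as lower, where 3.11% and 2.93% of all rows did. Their adjusted p-values by limma were 0.399, 0.167 and 0.167, so none passed, and the days overlapped for Inhba.

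The labor uteri were also checked for cells that could carry such genes. Oocyte markers summed to 0.341 to 0.767 FPKM. Of 10 trophoblast markers, 9 had a row, their sum was 4.51 to 58.8 FPKM at E15.5 and 53.7 to 85.3 at E18.5, and 1 of the 6 tested, Tpbpa (in a row merged with AC160962.3), passed the criterion as higher at E18.5, where 3.11% of all rows did. Tpbpa was at 6.20, 1.41 and 1.66 FPKM at E15.5 and at 42.2, 52.7 and 31.9 at E18.5, with a log2 fold change of 4.02 ± 0.53 (SE) and an adjusted p of 0.0788 by limma. The other trophoblast markers were mixed. Prl3d1, a marker of giant cells, was at 0 in 4 of the 6 libraries, and the trophoblast enzyme Hsd3b6 was at most 0.0987 FPKM. Syna, Synb and Ctsq were at most 0.264 FPKM. In contrast, Prl3b1 (0.734 to 5.14 FPKM), Prl2c2 (0.790 to 22.5) and Prl8a9 (0.738 to 23.8) were present in all 6 libraries. The decidual prolactin Prl8a2 was at 1342 FPKM in E15.5 replicate 1 and at 40.2 to 86.0 in the other 5. Of the adrenal enzymes, Cyp11b1 was at 4.74, 7.29 and 5.07 FPKM at E15.5 and at 0.829, 1.69 and 3.00 at E18.5, with Cyp11b2 at most 0.130. Cyp21a1 was uneven and overlapped, at 0.0166, 0.563 and 7.99 FPKM at E15.5 and at 2.92, 4.85 and 0.983 at E18.5. Of the 4 adrenal cortex markers tested, Cyp11b1 and Akr1b7 passed the study's criterion as lower at E18.5. The other 2 did not pass, where 2.93% of all rows passed as lower. None of the 4 passed the adjusted p by limma. The part of placental or decidual RNA in the levels of Cyp11a1, Cyp17a1 and Hsd3b1 was not tested.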

How the data were processed

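Whole uteri of 12 mice were sequenced by the authors, who per the study's methods used Cutadapt for trimming, Bowtie2 with Tophat2 for mapping, StringTie for merged assemblies and Ballgown for FPKM, and FPKM per gene was deposited as 1 table per stage. The submitters' processing notes name Bowtie 0.12.2, HISAT2 2.0, StringTie 1.3.0 and the builds mm8 and mm10. The study describes ribosomal RNA removal, and the labels describe poly(A) selection. Counts per gene were also deposited by the authors for the implantation stage. How reads were assigned, and by which strand, is not given in the sources used here. Positions are those of the tables, and all 10 genes overlap the RefSeq gene of the same symbol in GRCm38.p6. FPKM of 0.0001 stood where the count was 0 and was set to 0.

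A row was tested when it averaged 0.1 FPKM or more in the libraries fitted. E0.5 was compared with E4.5 on counts with edgeR 4.0.16 (TMM, quasi-likelihood F-test), without E4.5 replicate 3, and E18.5 with E15.5 on log2(FPKM + 0.1) with the trend option of limma 3.58.1. R 4.3.3 was used. A fold change on that scale understates the change of low genes. The SE of an edgeR log2 fold change is its size divided by the square root of F. Adjusted p-values are Benjamini-Hochberg over all rows of a fit. Libraries are separate mice. The genes, lists, markers and the left-out library were chosen with earlier results of these data known, and the named genes are the 10 genes, list genes that passed a call or define a cell type, and the 15 rows of highest ratio. Some list genes were named after their values were seen. The fits were tested on simulated data. Alternatives were other filters, pseudocounts, quantile scaling, DESeq2 1.42.0, limma in place of edgeR, blocking by replicate number and leaving out each library. Python 3.11.15 with pandas 2.3.3 was used for the tables.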

Additional observations from a re-analysis of the deposited data

Results flagged for a closer look

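Srd5a1 (5α-reductase, in a row merged with Gm17108) was higher on the later day of both stages, with no overlap in either. The study sets E0.5 over E4.5 and E18.5 over E15.5, so in its comparisons the gene has opposite signs, with a log2 fold change of -3.52 for E0.5 over E4.5 without E4.5 replicate 3 and 1.95 for E18.5 over E15.5. In FPKM it was at 1.55, 1.28 and 1.13 at E0.5 against 10.2 and 20.0 in E4.5 replicates 1 and 2, and at 14.2, 18.502 and 46.8 at E15.5 against 114, 85.5 and 72.7 at E18.5. The difference between the stages was not tested, since the tables were normalized separately.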

How the results depend on the processing

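The labor table holds no counts, so the count totals of its libraries are unknown. Of 1870 rows called by the study's criterion at the labor stage, a pseudocount of 1 left 514 and a mean of at least 1 FPKM 799, and leaving out 1 library gave 1548 to 2415. The 8 rows past the adjusted p became 4 with a pseudocount of 1, 4 with no filter, 3 with a mean of at least 1 FPKM, 19 with quantile scaling, and 0 to 29 with 1 library left out. For E0.5 against E4.5 without E4.5 replicate 3, the 8391 rows called became 5061 with a mean of at least 1 FPKM and 6966 to 8292 with another library left out. The 3652 past the adjusted p became 8471 with DESeq2, 2208 with limma and 1022 to 2414 with another library left out. With all 6 libraries, the 7284 rows called became 4396 with a mean of at least 1 FPKM and 5996 to 8391 with 1 library left out, and the 730 past the adjusted p became 5816 with DESeq2, 1126 with a mean of at least 1 FPKM and 0 to 3652. A fit that leaves 1 E4.5 library assumes that it varies like the E0.5 group. The cause was not tested.

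Akr1cl, Lhcgr and Cyp19a1 were in neither main fit and are not part of the following count. Of 132 values of the rest of the 10 genes over these settings, 126 kept their direction and their side of the study's criterion. Another 1 newly passed it (Akr1c18 at the labor stage, 1.01 without E15.5 replicate 3) and 5 changed sign, all of genes with no detected difference. These were Hsd17b7 at the implantation stage with limma (-0.0097), without E0.5 replicate 1 (-0.25) and without E4.5 replicate 2 (-0.12), Inha without E0.5 replicate 3 (0.000406) and Star at the labor stage without E18.5 replicate 1 (-0.024). With 1 library left out, the value was -0.25 to 0.16 for Hsd17b7, -0.26 to 0.000406 for Inha and -0.024 to 0.24 for Star.

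Replicate numbers of the labels are shared between days, and no source describes them as a pairing. Deviations of same-numbered libraries correlated at -0.0628 to 0.0182 at the implantation stage and -0.0485 to 0.0170 at the labor stage, and not every library correlated best with its own number, so no pairing was seen. With a replicate block, 1853 rows were called and 2 passed the adjusted p at the labor stage, 7612 and 2429 without E4.5 replicate 3, and 6234 and 0 with all 6 libraries, where 8204 rows had an unadjusted p under 0.05. In the blocked fits the adjusted p was 0.0196 for Cyp11a1 (which entered through its E4.5 level) and 0.176 for Akr1c18 at the implantation stage, and 0.282 for Cyp17a1 and 0.413 for Hsd3b1 at the labor stage.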

Other observations

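The order of the libraries for Hsd3b1 at the labor stage was partly shared by other genes. This was looked for after its values were seen, among 234 rows that averaged 1 FPKM or more and had a standard deviation of at least 1.5 on the log2 scale over the 6 libraries. The 5 rows most like it, by Pearson r of log2(FPKM + 0.1) over 6 libraries of the same 2 days, were Etnppl (0.984), Clmn (0.973), 2010109I03Rik (0.957), Pramef12 (0.956) and Cpm (0.948). These values are a description, and each gene has its own spread. The correlations take in the difference between the days as well as the spread within each day. Etnppl was at 0.0362, 0.0941 and 0.491 FPKM at E15.5 and at 1.97, 2.63 and 0.879 at E18.5, so that replicate 3 was the highest at E15.5 and the lowest at E18.5. Replicate 3 had the same place in Clmn, with 0.169, 0.265 and 0.902 FPKM at E15.5 and 5.42, 4.01 and 1.77 at E18.5. In proportion, E18.5 replicate 3 was less far below the other E18.5 libraries in Etnppl and Clmn than in Hsd3b1 (21.6, 40.9 and 1.99 FPKM).

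Ltf and Cxcl17, which encode secreted proteins and were in the same 234 rows, were also highest in E18.5 replicates 1 and 2 and, at E15.5, in replicate 3. Lactoferrin, Ltf (r = 0.899 with Hsd3b1), was at 11.0, 38.2 and 64.5 FPKM at E15.5 and at 247, 218 and 161 at E18.5. The chemokine Cxcl17 (r = 0.913) was at 0.281, 1.06 and 10.3 FPKM and at 143, 86.0 and 74.3. In both genes E18.5 replicate 3 lay well above E15.5 replicate 3, whereas Hsd3b1 was at 1.99 and 1.46 FPKM in these libraries. Both genes were picked after their values were seen.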
